A study of Sus scrofa with 12 samples.

Results

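The collagen genes were the 35 rows of the deposited expression table, out of 18060, whose gene symbol is COL, a type number, the letter A and a chain number, so they were chosen by name and not by any measured value. They were followed in primary granulosa cells, the somatic cells that line the ovarian follicle and surround the oocyte, taken from antral follicles of mature crossbred sows (Duroc, Yorkshire and Landrace) and grown in serum-containing medium. The 3 hypoxia replicates were kept for 12 h in 1% O2, 5% CO2 and 94% N2, and the 3 normoxia replicates for 12 h in 21% O2, 5% CO2 and 74% N2. Each replicate gave a library of fragmented poly(A) RNA (input) and a library of the same RNA enriched with an antibody to N6-methyladenosine (m6A), a methyl mark on mRNA, which made 12 libraries. No genetic change is named in the labels, and no source used here says whether cells of several sows were pooled. FPKM, the fragments of a gene scaled by its length and by library size, was deposited for the 6 input libraries, and m6A was deposited as 1 peak list per condition and 1 list of differential peaks.

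Collagens are proteins of the extracellular matrix whose chains wind around each other into a triple helix. Fibrillar collagens (types I, II, III, V, XI, XXIV and XXVII) pack into fibrils, type IV forms the sheet-like network of basement membranes, fibril-associated collagens (FACITs) sit on the surface of fibrils, and the multiplexins (types XV and XVIII) lie in and near basement membranes. In the follicle, granulosa cells rest on a basal lamina that contains type IV collagen, and fibrillar collagens are known mainly from the surrounding theca and stroma. The chains are hydroxylated on prolines and lysines, by enzymes that need oxygen, before they fold and leave the cell.

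Across all genes, 10196 had at least 1 FPKM in at least 3 input libraries and were tested with limma on log2(FPKM + 1), with Benjamini-Hochberg adjustment over all of them. The median log2 fold change of the tested genes was -0.26, and after a median-ratio factor was applied to each library it was -0.01, a shift of 0.26, so collagen values are given under both scalings where the call or the direction differs. Hypoxia library 3 stood apart in the number of genes with at least 1 FPKM, at 8886, against 9813 and 10212 in hypoxia libraries 1 and 2. Normoxia library 3 had 9881 such genes, closer to the 10108 and 10067 of normoxia libraries 1 and 2. The 10 genes listed as known responders to low oxygen, such as VEGFA and CA9, were all higher in hypoxia (median log2 fold change 2.76). Of 10 tested granulosa markers 1 was called higher (INHBB) and 2 lower (FSHR and AMHR2), against 5.40% and 21.1% of all tested genes. After median-ratio scaling 1 was called higher and 0 lower, against 8.07% and 8.88%. Nothing is read from these counts. The 13 listed granulosa markers summed to between 255 and 408 FPKM in hypoxia and between 341 and 399 FPKM in normoxia. FOXL2 had between 4.26 and 7.80 FPKM and FSHR between 5.31 and 10.3 FPKM. AMH did not exceed 0.353 FPKM and CYP19A1 did not exceed 0.402 FPKM in any library.

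In the main fit, with every library and FPKM as deposited, the collagen mRNAs called different in hypoxic granulosa cells all belonged to fibrillar chains. COL5A1, which codes for the chain of type V collagen that limits fibril diameter, and COL1A1, the main chain of type I collagen, the chief fibril protein, rose to 1.81 and 1.56 times their normoxia means. COL27A1, a fibrillar chain known from developing cartilage and present here near 2 FPKM or less, fell to 0.556 of its normoxia mean. Of the 19 collagen genes that could be tested, these 2 were called higher and this 1 lower at an adjusted p under 0.05, against 5.40% of all tested genes called higher and 21.1% called lower. The other 16 tested members did not pass. Among them COL18A1, a multiplexin, had a log2 fold change of 0.66 (limma adjusted p = 0.112), above the 0.62 of COL1A1. An unadjusted limma p under 0.05 was found for 5 of the 19. It was found for 3897 of all 10196 tested genes, which is a larger share.

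COL5A1 (chr1:273971971-274085111, plus strand, Sscrofa11.1) had 123, 148 and 171 FPKM in hypoxia libraries 1 to 3, against 75.2, 92.1 and 77.8 FPKM in normoxia libraries 1 to 3. Every hypoxia library lay above every normoxia library, with means of 148 ± 24.2 and 81.7 ± 9.11 FPKM (SD, n = 3 each). The log2 fold change was 0.84 (SE 0.169, limma adjusted p = 0.0114), and after median-ratio scaling it was 1.16 (adjusted p = 0.00956). The adjusted p was 0.0553 without normoxia library 1 and 0.0552 without normoxia library 3.

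COL1A1 (chr12:26379090-26397004, minus strand) had 248, 266 and 344 FPKM in hypoxia, against 176, 189 and 185 FPKM in normoxia. The conditions did not overlap, hypoxia library 3 was the highest of the 6, and the normoxia libraries lay close together (286 ± 51.3 and 184 ± 6.99 FPKM, SD, n = 3 each). The difference was 0.62 on the log2 scale (SE 0.158, limma adjusted p = 0.0259), and 0.94 after median-ratio scaling (adjusted p = 0.0211). Without normoxia library 1, 2 or 3 the adjusted p was 0.102, 0.0942 or 0.0884.

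COL27A1 (chr1:254770093-254923823, plus strand) had 1.03, 1.17 and 1.44 FPKM in hypoxia, against 1.91, 2.096 and 2.55 FPKM in normoxia. All hypoxia values lay below all normoxia values (1.21 ± 0.205 and 2.18 ± 0.329 FPKM, SD, n = 3 each), at a level close to the lowest that was tested. The log2 fold change of -0.52 (SE 0.161) had a limma adjusted p of 0.0498. After median-ratio scaling the log2 fold change was -0.32 (adjusted p = 0.267), and the adjusted p also passed 0.05 with each library left out except hypoxia library 3, lying between 0.0793 and 0.194, while it was 0.00978 without that library.

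The partner chains of types I and V had smaller differences. COL1A2, the second chain of type I collagen, had 125, 158 and 136 FPKM in hypoxia, against 108, 110.1 and 123 FPKM in normoxia. COL5A2, the second chain of type V, had 308, 382 and 346 FPKM in hypoxia, against 251, 273 and 296 FPKM in normoxia. In both genes the lowest hypoxia library was above the highest normoxia library, by a margin small beside the spread. Neither passed as deposited (limma log2 fold change 0.29, SE 0.144, adjusted p = 0.188 for COL1A2 and 0.33, SE 0.141, adjusted p = 0.126 for COL5A2). After median-ratio scaling both were called higher, COL1A2 at 0.61 (adjusted p = 0.044) and COL5A2 at 0.66 (adjusted p = 0.0357).

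The other fibrillar chains with high levels did not separate the conditions. COL3A1, whose chain forms type III collagen of soft tissue and whose mean over the 6 libraries was the highest of the fibrillar members by FPKM, had 282, 338 and 356 FPKM in hypoxia, against 272, 267 and 383 FPKM in normoxia. The highest value of all was normoxia library 3, and the means of 325 ± 38.6 and 308 ± 65.2 FPKM (SD, n = 3 each) differed by 0.09 on the log2 scale (SE 0.184, limma adjusted p = 0.759). COL11A1, a type XI chain that assembles into fibrils with type V chains, had 84.1, 99.6 and 85.7 FPKM in hypoxia, against 88.8, 96.2 and 96.4 FPKM in normoxia, which overlap. Its log2 fold change was -0.06 as deposited and 0.25 after median-ratio scaling, called under neither. Of the 10 fibrillar genes in the table, 7 were tested, with 2 called higher and 1 lower as deposited and 4 called higher and 0 lower after scaling. Their median log2 fold change was 0.29 as deposited and 0.61 after scaling. COL5A3, COL11A2 and COL24A1 stayed at or below 0.482 FPKM in every library.

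**Figure D1:**
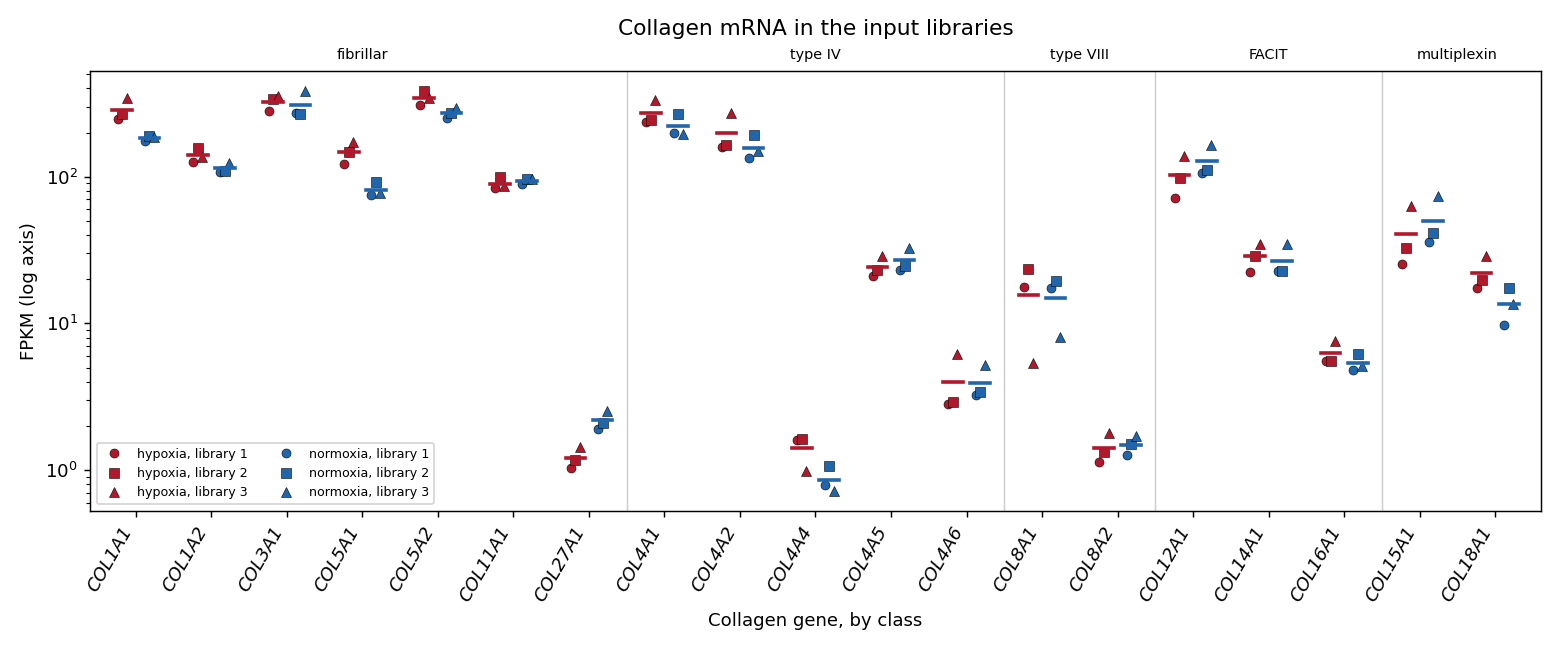
FPKM (log axis) of the 19 tested collagen genes in the 3 hypoxia input libraries (red, left) and the 3 normoxia input libraries (blue, right), 1 point per library with its number given by the symbol and the condition mean as a line, grouped by class. The hypoxia points of COL1A1, COL1A2, COL5A1 and COL5A2 lie above all normoxia points of the same gene, those of COL27A1 lie below, and in COL8A1 library 3 is the lowest of both conditions.

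Basement membrane collagen was abundant in both conditions and no type IV gene was called. COL4A1, the main chain of the type IV network, had 234, 244 and 332 FPKM in hypoxia, against 199.8, 269 and 195 FPKM in normoxia. Its partner COL4A2 had 159, 165 and 273 FPKM in hypoxia, against 134, 191 and 149.7 FPKM in normoxia. In both genes hypoxia library 3 was the highest value, normoxia library 2 was above hypoxia libraries 1 and 2, and the conditions overlapped. The log2 fold change of COL4A1 was 0.28 (SE 0.198, limma adjusted p = 0.342), from means of 269.8 ± 53.8 and 221 ± 41.4 FPKM (SD, n = 3 each). That of COL4A2 was 0.30 (SE 0.248, limma adjusted p = 0.429).

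The minor type IV chains were far lower by FPKM. COL4A5, the X-linked chain altered in Alport syndrome, had 21.1, 23.0 and 28.6 FPKM in hypoxia, against 23.0, 24.6 and 32.9 FPKM in normoxia. COL4A6, which lies next to it on the X chromosome, had 2.83, 2.90 and 6.21 FPKM in hypoxia, against 3.25, 3.39 and 5.20 FPKM in normoxia. For both genes the conditions overlapped, library 3 was the highest of each condition, and the log2 fold change was below 0 as deposited (-0.14 and -0.03) and above 0 after scaling (0.18 and 0.22). COL4A4, a chain of the network of kidney glomeruli and the inner ear, had 1.60, 1.63 and 0.978 FPKM in hypoxia, against 0.795, 1.07 and 0.723 FPKM in normoxia. Hypoxia libraries 1 and 2 were above all normoxia libraries and library 3 was not, and the log2 fold change of 0.36 (SE 0.172) had a limma adjusted p of 0.171, which was 0.017 without hypoxia library 3. COL4A3, the chain that pairs with COL4A4, had at most 0.278 FPKM and was not tested.

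The type IV genes lie in head-to-head pairs in the deposited annotation. COL4A1 and COL4A2 start 193 bases apart on chromosome 11, COL4A6 and COL4A5 1432 bases apart on the X chromosome, and COL4A4 and COL4A3 16388 bases apart on chromosome 15. The level by FPKM was close within the first pair and differed several-fold within the other pairs. COL3A1 and COL5A2 lie tail to tail on chromosome 15 with 15492 bases between them, and COL5A2 separated the conditions while COL3A1 did not.

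Short-chain, fibril-associated and multiplexin collagens gave no call as deposited or after scaling. COL8A1, a short-chain collagen of networks in vessel walls and the cornea, had 17.8, 23.4 and 5.33 FPKM in hypoxia, against 17.3, 19.3 and 8.06 FPKM in normoxia. Library 3 was the lowest of both conditions by a wide margin, and the log2 fold change was -0.07 (SE 0.542, limma adjusted p = 0.945), or 0.22 after scaling, from means of 15.5 ± 9.27 and 14.9 ± 6.02 FPKM (SD, n = 3 each). Its partner COL8A2 had 1.14, 1.34 and 1.79 FPKM in hypoxia, against 1.27, 1.50 and 1.71 FPKM in normoxia, with log2 fold changes of -0.05 as deposited and 0.15 after scaling. In COL8A2 library 3 was the highest of both conditions, the reverse of its partner chain.

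COL12A1, a FACIT that coats type I fibrils, had 71.5, 98.2 and 138 FPKM in hypoxia, against 106, 111 and 165 FPKM in normoxia. Library 3 was the highest of both conditions, the conditions overlapped, and the means of 103 ± 33.7 and 128 ± 32.6 FPKM (SD, n = 3 each) differed by -0.33 on the log2 scale (SE 0.279, limma adjusted p = 0.435), or by -0.01 after scaling. COL14A1, a FACIT of similar build, had 22.2, 28.9 and 34.7 FPKM in hypoxia, against 22.8, 22.8 and 34.8 FPKM in normoxia. COL16A1, a FACIT of lower level by FPKM, had 5.50, 5.56 and 7.64 FPKM in hypoxia, against 4.81, 6.19 and 5.12 FPKM in normoxia. Both overlapped between conditions, with log2 fold changes of 0.09 for COL14A1 and 0.18 for COL16A1.

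COL15A1, a multiplexin of basement membrane zones, had 25.5, 32.6 and 63.6 FPKM in hypoxia, against 36.0, 41.3 and 73.4 FPKM in normoxia. Library 3 again stood above the other libraries of its condition, and the means of 40.6 ± 20.2 and 50.2 ± 20.2 FPKM (SD, n = 3 each) differed by -0.34 on the log2 scale (SE 0.389, limma adjusted p = 0.578). COL18A1, the multiplexin whose C-terminal fragment is endostatin, had 17.3, 19.8 and 28.9 FPKM in hypoxia, against 9.78, 17.4 and 13.6 FPKM in normoxia. Hypoxia library 1 was just below normoxia library 2, and the other hypoxia libraries were above all normoxia libraries. The log2 fold change of COL18A1 was 0.66 (SE 0.263, limma adjusted p = 0.112), or 0.96 after scaling (adjusted p = 0.0634). Without hypoxia library 3, COL12A1 had a log2 fold change of -0.57 (limma adjusted p = 0.0443) and COL15A1 one of -0.71 (adjusted p = 0.0429), so both were then called lower. With every library kept, 21.1% of all tested genes were called lower. That share belongs to another fit than the one without hypoxia library 3, so nothing is read from these calls. After scaling with every library the log2 fold changes were -0.01 for COL12A1 and -0.02 for COL15A1. With scaling and without both libraries numbered 3 they were -0.10 and -0.14 (limma adjusted p = 0.665 and 0.529).

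**Figure D2:**
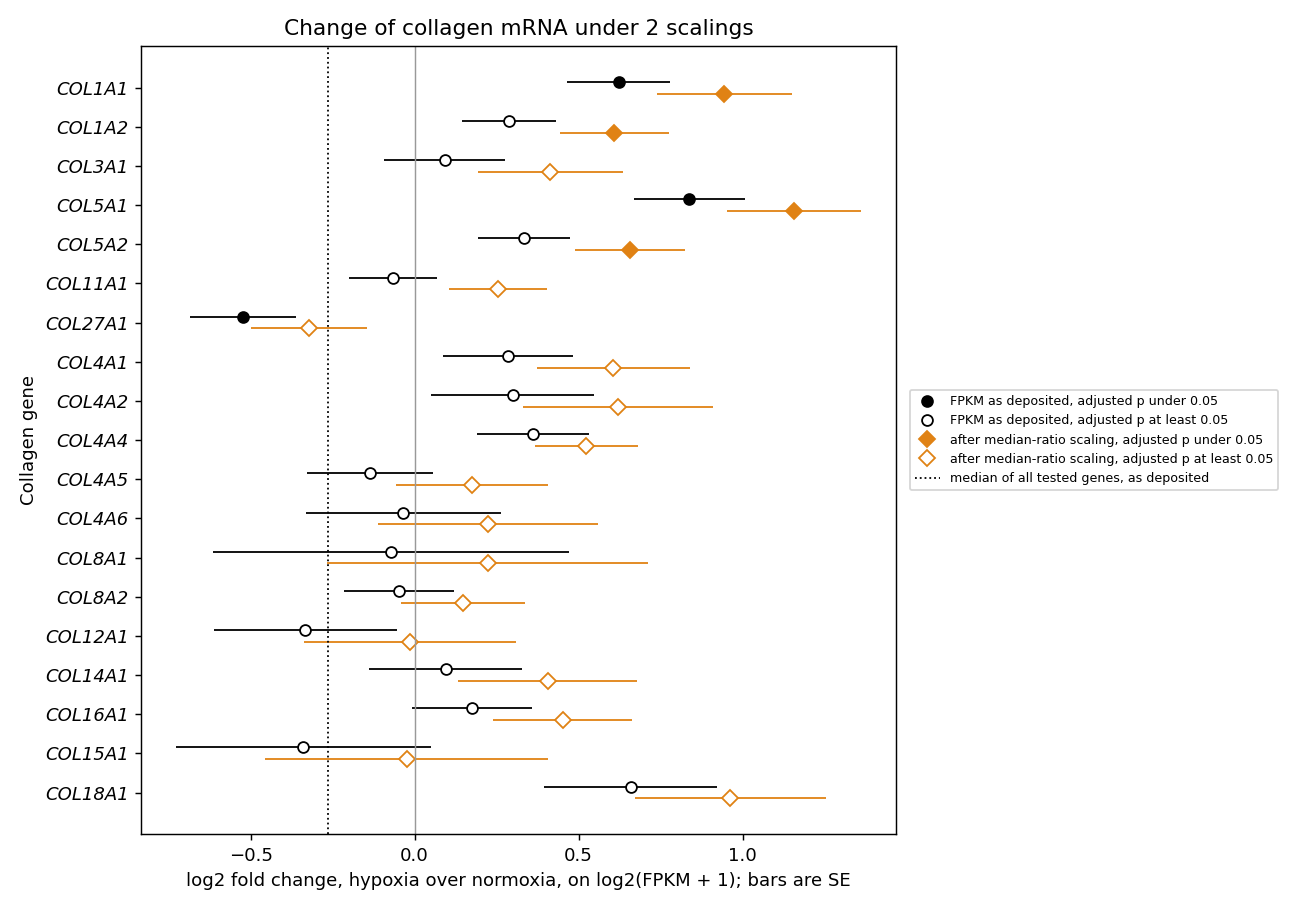
Log2 fold change of hypoxia over normoxia for the 19 tested collagen genes on log2(FPKM + 1), with bars for the SE of the limma fit, from FPKM as deposited (black) and after median-ratio scaling (orange); filled symbols passed an adjusted p of 0.05 and the dotted line is the median of all tested genes as deposited. COL5A1 and COL1A1 were called under both, COL1A2 and COL5A2 only after scaling and COL27A1 only as deposited, and COL11A1, COL4A5, COL4A6, COL8A1 and COL8A2 changed sign between the scalings.

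The median log2 fold change of the 19 tested members was 0.09, against -0.26 for all tested genes, a difference of 0.36. After scaling it was 0.41, against -0.01, with 4 members called higher and 0 lower, where 8.07% of all tested genes were called higher and 8.88% lower. The conditions were without overlap in 4 members with hypoxia above (COL1A1, COL1A2, COL5A1 and COL5A2) and for 1 with hypoxia below (COL27A1), against 9.25% and 34.9% of all tested genes. Library 3 was the highest of both conditions in 8 of the 19 members, where this held for 19.1% of all tested genes, and the lowest of both in 2 (COL8A1 and COL4A4), where it held for 42.1%. Without both libraries numbered 3, a setting chosen after seeing the data, 3 members were called higher (COL5A1, COL1A1 and COL4A4) and 1 lower (COL27A1). Over all tested genes this setting also called more higher than the 551 (5.40%) called with every library, as given below. The share of all genes called lower in it is not given here, so nothing is read from the COL27A1 call in this setting. With median-ratio scaling and without both libraries, 7 were called higher (COL1A1, COL1A2, COL3A1, COL5A1, COL5A2, COL4A4 and COL18A1) and 0 lower, against 18.4% of all genes tested there called higher. The part of the libraries numbered 3 in these calls was not tested beyond leaving them out.

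The 35 collagen genes together held 0.544, 0.692 and 0.724% of the summed FPKM in hypoxia, against 0.491, 0.540 and 0.583% in normoxia. Hypoxia library 1 lay within the normoxia values and the other hypoxia libraries lay above them (0.653 ± 0.0961% and 0.538 ± 0.0463%, SD, n = 3 each). Fibrillar chains made up most of this, with 1171, 1392 and 1441 FPKM summed in hypoxia, against 973, 1031 and 1164 FPKM in normoxia. These sums do not overlap, but only narrowly (1171 against 1164 FPKM). All genes summed to 322269 FPKM in hypoxia library 1 and 317466 FPKM in normoxia library 3. As shares of those totals the fibrillar chains were lower in hypoxia library 1 than in normoxia library 3, so the shares overlap. Type IV chains summed to 419, 436 and 641 FPKM in hypoxia, against 361, 489 and 383 FPKM in normoxia, and FACITs to 99.4, 133 and 181 FPKM, against 134, 140.3 and 205 FPKM, both with overlap. The 5 members of highest mean held 70.2, 68.3 and 69.8% of all collagen FPKM in hypoxia, against 67.3, 68.3 and 65.2% in normoxia. In libraries of cells in bulk, fewer cells of a type and less RNA per cell cannot be told apart.

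By FPKM, COL3A1, COL5A2, COL1A1 and COL4A1 formed the top of the order, and COL3A1 ranked between 110 and 164 among all 18060 genes of a library. In hypoxia the means of COL5A2 (345 ± 36.9 FPKM), COL3A1 (325 ± 38.6 FPKM), COL1A1 (286 ± 51.3 FPKM) and COL4A1 (269.8 ± 53.8 FPKM) each lay within about 1 SD of the next. In normoxia COL3A1 (308 ± 65.2 FPKM) and COL5A2 (273 ± 22.5 FPKM) came first and COL4A1 (221 ± 41.4 FPKM) and COL1A1 (184 ± 6.99 FPKM) followed, with COL4A1 above COL1A1, the opposite of their order in hypoxia. The order of COL4A1 and COL1A1 was not beyond the spread of COL4A1 in either condition.

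Ratios between chains of 1 collagen type were taken within a library, where the scaling of the library cancels. The ratio of COL5A1 to COL5A2 was 0.399, 0.389 and 0.495 in hypoxia, against 0.300, 0.337 and 0.263 in normoxia. The conditions did not overlap (0.428 ± 0.0584 and 0.300 ± 0.0370, SD, n = 3 each), and the two-sided exact permutation p was 0.1, the smallest that 3 against 3 allows, or 0.5 after Benjamini-Hochberg adjustment over the 5 ratios. The ratio of COL1A1 to COL1A2 was 1.98, 1.68 and 2.53 in hypoxia, against 1.63, 1.72 and 1.50 in normoxia. Hypoxia library 2 lay below normoxia library 2, so these overlap (exact permutation p = 0.2, adjusted 0.5).

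The ratios of the type IV pairs overlapped between conditions. COL4A1 stood at 1.39 ± 0.151 times COL4A2 in hypoxia and at 1.40 ± 0.0979 times in normoxia (SD, n = 3 each, exact permutation p = 0.8). COL4A5 stood at 6.67 ± 1.81 times COL4A6 in hypoxia and at 6.89 ± 0.501 times in normoxia (exact permutation p = 1). The ratio of COL8A1 to COL8A2 was 15.7, 17.6 and 2.97 in hypoxia, against 13.6, 12.9 and 4.71 in normoxia (exact permutation p = 0.6). Here the libraries numbered 3 were low in both conditions, and the spread between libraries was wider than the difference between conditions. Ratios of type VI chains were not taken, because COL6A1 and COL6A3 did not pass the filter and no row carried the symbol COL6A2.

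**Figure D3:**
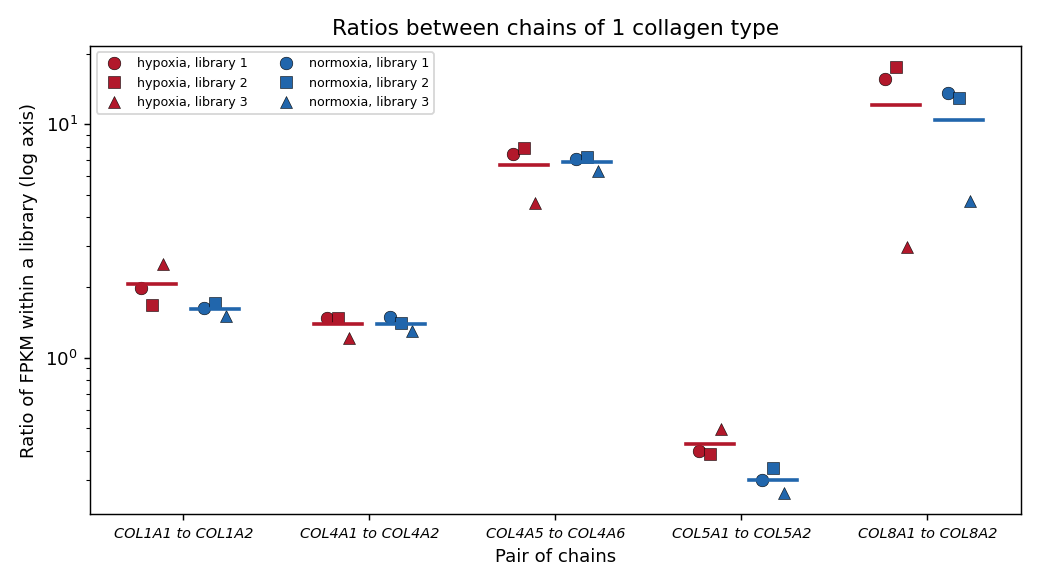
Ratio of FPKM between chains of 1 collagen type within each library (log axis), hypoxia in red on the left and normoxia in blue on the right of each pair, 1 point per library and the mean as a line. COL5A1 to COL5A2 was 0.389 to 0.495 in hypoxia and 0.263 to 0.337 in normoxia, the 1 pair of the 5 without overlap.

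Of the 35 collagen genes, 16 did not reach 1 FPKM in 3 libraries and had no test. Type VI chains, which form beaded filaments in most connective tissues, were near the limit: COL6A1 had 0.906, 0.768 and 1.39 FPKM in hypoxia, against 0.645, 0.873 and 1.04 FPKM in normoxia. COL6A3 had 0.514, 0.360 and 1.64 FPKM in hypoxia, against 0.504, 0.559 and 1.31 FPKM in normoxia, with library 3 the highest of each condition. COL6A6, COL10A1 (the hypertrophic cartilage collagen), COL13A1, COL19A1, COL25A1, COL26A1 and COL28A1 stayed at or below 0.0652 FPKM, and COL9A3, COL17A1 and COL23A1 at or below 0.326 FPKM. No row of the expression table carried the symbol COL2A1 or COL6A2, so these genes were not analysed here.

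A q-value under 0.05 was given to 5 collagen genes in the authors' deposited table, all higher in hypoxia, against 6.84% of all its genes higher and 6.88% lower. They were COL5A1 (q = 0.000419), COL1A1 (q = 0.00629), COL18A1 (q = 0.0147), COL23A1 (q = 0.0422) and COL4A4 (q = 0.043). In the same table COL23A1, a transmembrane collagen, was the only collagen gene marked significant, with a log2 fold change of 1.05. COL5A1, COL1A1 and COL18A1 had lower q-values but smaller log2 fold changes there (0.85, 0.64 and 0.69), and COL4A4 had 0.70. COL23A1 had 0.133, 0.203 and 0.275 FPKM in hypoxia, against 0.0726, 0.123 and 0.0990 FPKM in normoxia, which do not overlap but lie below the level tested here. COL27A1, called lower here, had a q-value of 0.278 in the authors' deposited table.

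Genes that act on collagen were read against all tested genes, of which 5.40% were called higher and 21.1% lower as deposited, and 8.07% higher and 8.88% lower after median-ratio scaling. Of 13 tested prolyl and lysyl hydroxylases, partners and glycosyltransferases, 5 were called higher and 0 lower, with a median log2 fold change of 0.61, and 7 were called higher and 0 lower after scaling. P4HA1, a catalytic subunit of prolyl 4-hydroxylase, had 94.8, 109 and 71.4 FPKM in hypoxia, against 18.1, 17.6 and 15.9 FPKM in normoxia (log2 fold change 2.33, limma adjusted p = 0.000461). PLOD1, a lysyl hydroxylase, had 271, 257 and 516 FPKM in hypoxia, against 68.6, 70.0 and 99.8 FPKM in normoxia (2.06, limma adjusted p = 0.00368). These groups lay far apart, and P4HA2 (2.01) and P4HB (0.90), the second catalytic subunit and the common subunit of the same enzyme, were called higher as well. Without hypoxia library 1, normoxia library 1 or normoxia library 2, the count of this list was 3.

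Of 10 tested procollagen processing and crosslinking genes 1 was called higher and 3 lower, with a median of 0.29, against 5.40% and 21.1% of all tested genes. LOXL2, which crosslinks collagen lysines, had 401, 416 and 588 FPKM in hypoxia, against 124, 126 and 148 FPKM in normoxia (log2 fold change 1.79, limma adjusted p = 0.00105). ADAMTS14, which removes the N-propeptide of fibrillar procollagen, had 0.826, 1.06 and 1.01 FPKM in hypoxia, against 4.01, 4.23 and 5.41 FPKM in normoxia (-1.49, limma adjusted p = 0.00146). PCOLCE2, an enhancer of C-propeptide removal (-1.02), and LOXL1, a lysyl oxidase of elastic fibres (-0.59), were the other genes called lower. After median-ratio scaling 1 was called higher and 1 lower.

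Of 15 tested folding and export genes 1 was called higher and 2 lower (median -0.09), against 5.40% and 21.1% of all tested genes. After scaling 2 were called higher and 0 lower, against 8.07% and 8.88% of all tested genes. CREB3L2, a transcription factor of secretory capacity, rose (log2 fold change 0.75), and CREB3L1, its relative that activates type I collagen genes in mouse bone, fell by 1.32 on the log2 scale to 23.5, 25.2 and 44.1 FPKM in hypoxia, against 63.3, 78.5 and 88.2 FPKM in normoxia. SEC13, a coat protein of vesicles that leave the endoplasmic reticulum, had a log2 fold change of -0.63. The collagen chaperone SERPINH1 did not separate the conditions (-0.01, limma adjusted p = 0.988).

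Among 13 tested degradation and uptake genes, TIMP3, an inhibitor of matrix proteases, was called higher (log2 fold change 1.25) and MMP15, a membrane-bound matrix protease, lower (-1.29), with a median of -0.16. TIMP3 was called in none of the fits that left out a library other than hypoxia library 3. The collagen receptors gave 0 of 6 higher and 1 lower, ADGRG1, a receptor that binds type III collagen in mouse brain (-0.97), with a median of 0.17. The fibril-binding proteoglycans and glycoproteins gave 0 of 11 higher and 1 lower, THBS2, which affects fibril assembly in mouse skin (-0.69), with a median of -0.13, and 3 higher and 0 lower after scaling. The lower calls of the degradation list, the receptors and the fibril-binding list were all lost after scaling. With 1 lower call each as deposited, where 21.1% of all tested genes were called lower, nothing is read from these calls.

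**Figure D4:**
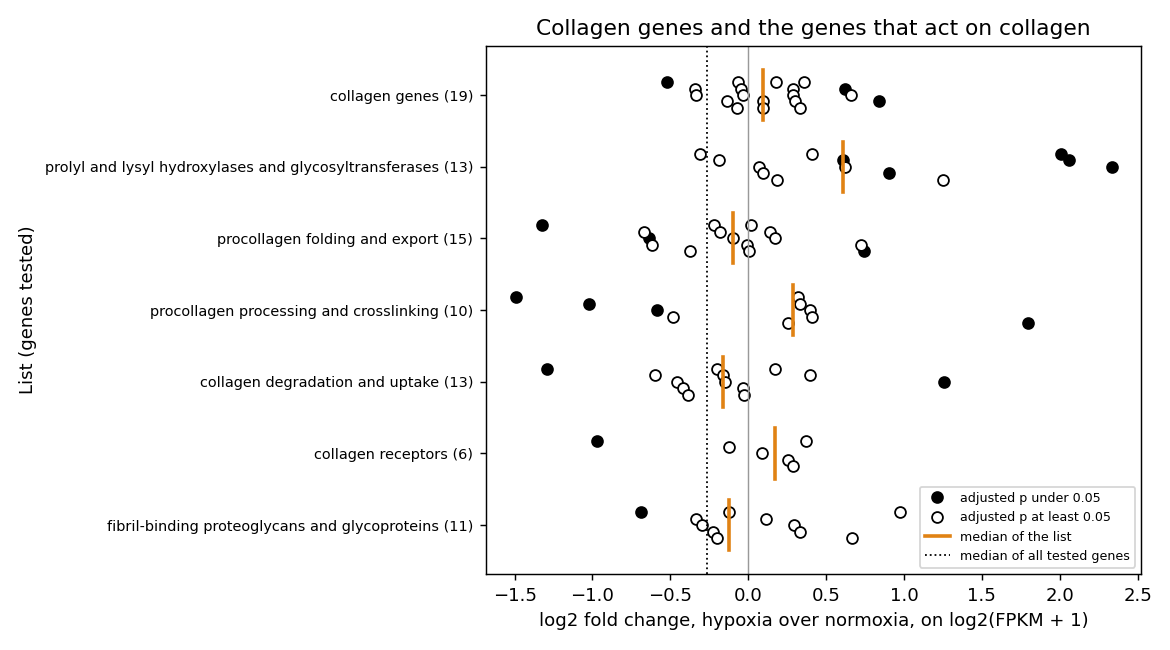
Log2 fold change of hypoxia over normoxia on log2(FPKM + 1) for the tested genes of the collagen list and of 6 lists of genes that act on collagen, 1 point per gene, with filled points at an adjusted p under 0.05, the list median as an orange bar and the median of all tested genes (-0.26) as a dotted line. The largest rises are P4HA1, PLOD1 and P4HA2 in the hydroxylase list and LOXL2 in the crosslinking list, all above COL5A1 at 0.84; scaling moves all medians up.

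Markers of other cells that make collagen were also read. Of all tested genes, 5.40% were called higher and 21.1% lower as deposited, and 8.07% higher and 8.88% lower after scaling. Nothing is read from the counts of called genes in these small lists. Of 9 tested fibroblast and smooth muscle markers 1 was called higher (PDGFRA, log2 fold change 0.84) and 2 lower (ACTA2 at -1.14 and DES at -0.65), with a median of -0.30, and 1 was called higher and 1 lower after scaling. The 10 listed markers in the table summed to between 5672 and 7105 FPKM in hypoxia and between 9229 and 11239 FPKM in normoxia, mostly from ACTA2, and DPT was at 0 in 5 of the 6 libraries. Of 4 tested theca markers 0 were called higher and 1 lower, and 0 in either direction after scaling, with sums of 40.2 to 114.5 FPKM in hypoxia and 46.9 to 90.5 FPKM in normoxia, while STAR did not exceed 0.0973 FPKM. Of the 7 endothelial markers in the table, 1 was tested, PECAM1, an adhesion molecule of endothelial cells, which had 3.01, 2.91 and 2.52 FPKM in hypoxia, against 6.80, 6.19 and 6.70 FPKM in normoxia. It was called lower as deposited (log2 fold change -0.99, limma adjusted p = 0.00414) and after scaling (-0.73). The other endothelial markers stayed at or below 0.536 FPKM, and the list summed to between 3.34 and 3.46 FPKM in hypoxia and between 6.95 and 7.27 FPKM in normoxia. Of the 6 leukocyte markers in the table, 3 were tested, CD68, CD14 and LAPTM5, with 0 called higher and 0 lower under both scalings. The leukocyte list summed to between 3.46 and 9.49 FPKM in hypoxia and between 4.91 and 5.87 FPKM in normoxia, while PTPRC stayed at or below 0.0768 FPKM. The part of these cells in the collagen differences was not tested.

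The m6A peak lists held 74 peaks in 24 collagen genes in hypoxia and 80 peaks in 25 collagen genes in normoxia. In the authors' lists 67 and 70 of these peaks, in 23 and 24 genes, had an adjusted p-value under 0.05. The other 7 and 10 did not. Enrichments are the authors' values, immunoprecipitate over input, and are used only to describe peaks within a list. Of the 19 tested members 18 had a peak in hypoxia and 19 in normoxia, against 79.8% and 85.8% of all tested genes. Of the 16 members below the filter 6 had a peak in each condition, against 34.1% and 33.6% of all such genes. Collagen peaks were annotated as exonic for 44 of 74 in hypoxia (59.5%) and 52 of 80 in normoxia (65.0%), where 35.8% and 32.8% of all peaks were. In the 3′ UTR lay 21 collagen peaks in hypoxia (28.4%) and 23 in normoxia (28.8%), where 43.7% and 45.8% of all peaks did. In the 5′ UTR lay 9 collagen peaks in hypoxia (12.2%) and 5 in normoxia (6.25%), where 15.9% and 17.1% of all peaks did. No test was possible with 1 list per condition.

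Of the 74 hypoxia peaks 64 (86.5%) overlapped a peak of the same gene in the normoxia list by at least 1 base, where 83.8% of all hypoxia peaks did. Of the 80 normoxia peaks 68 (85.0%) overlapped one of the hypoxia list, where 72.4% of all normoxia peaks did. By at least 0.5 of the length of both peaks, 49 collagen peaks of each list overlapped (66.2% in hypoxia and 61.3% in normoxia), where 44.9% and 43.3% of all peaks did. In the tested members 5 of 52 hypoxia peaks (9.62%) and 5 of 54 normoxia peaks (9.26%) had no counterpart, where 12.5% and 25.9% of the peaks of all tested genes had none. The hypoxia peaks without one were in COL1A2 (5′ UTR, enrichment 2.50), COL4A5 (5′ UTR, 2.15), COL16A1 (exonic, 2.23) and COL27A1 (2 exonic peaks, 3.44 and 6.70). Those of normoxia were in COL3A1 (3′ UTR, 1.20), COL4A2 (exonic, 1.38), COL4A4 (exonic, 4.02), COL5A1 (3′ UTR, 1.23) and COL16A1 (exonic, 1.68). COL9A3 had a peak in hypoxia alone and COL17A1 in normoxia alone, both at no more than 0.326 FPKM. In the authors' lists the COL27A1 peak at 3.44 had an adjusted p-value of 0.133 and the COL17A1 peak one of 0.191.

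**Figure D5:**
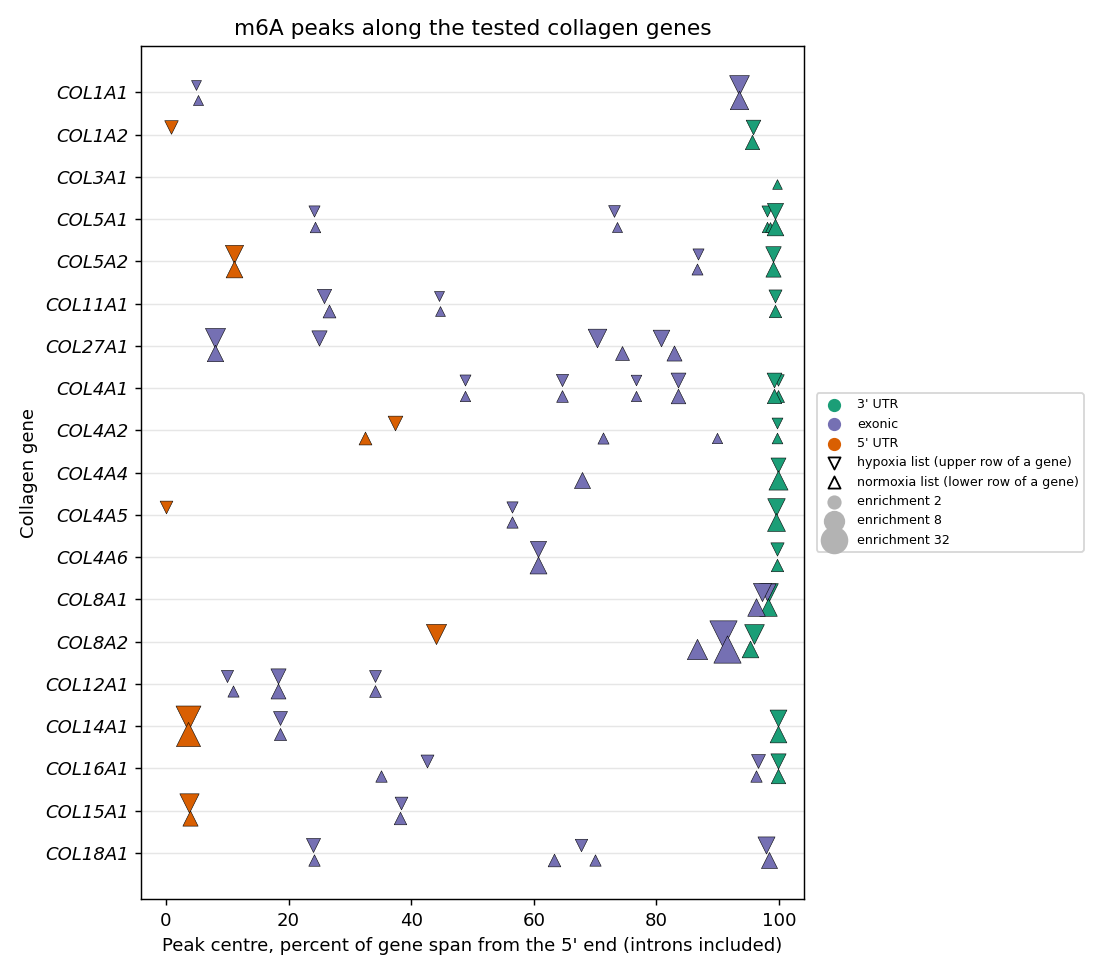
Centres of the m6A peaks along the 19 tested collagen genes, as percent of the gene span from the 5′ end with introns included, with hypoxia peaks pointing down in the upper row of each gene and normoxia peaks pointing up in the lower row, coloured by annotated region and sized by enrichment. Most peaks occur in both rows at about the same place, COL3A1 has a single peak, in normoxia, and COL8A2 and COL14A1 carry the largest symbols.

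The peak of highest enrichment on a collagen gene was exonic in COL8A2, at chr6:92249105-92249700 in hypoxia (46.4) and chr6:92248986-92249492 in normoxia (46.5), on the minus strand. COL14A1 followed with a peak in the 5′ UTR that spans an intron, at chr4:18908111-18924971 in hypoxia (26.8) and chr4:18908082-18924971 in normoxia (22.2), also on the minus strand. Exonic peaks of COL6A3 at chr15:137063215-137063574 (minus strand, 23.7) and of COL6A1 at chr13:208299091-208302013 (plus strand, 17) had the next highest enrichments among collagen peaks of the hypoxia list. COL8A2, COL6A1 and COL6A3 had mean FPKM of 1.42, 1.02 and 0.840 in hypoxia and 1.49, 0.852 and 0.792 in normoxia, so their input was low. Within the lists, peaks on tested members had median enrichments of 3.07 in hypoxia and 2.16 in normoxia, and peaks on members below the filter 5.72 and 6.08, where all peaks had 4.81 and 4.23.

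The peaks of some abundant chains were looked up after their FPKM were seen. COL1A1 had an exonic peak near its 3′ end at the same place in both lists (chr12:26379629-26380881, minus strand), with an enrichment of 8.48 in hypoxia and 6.45 in normoxia, and a second near its 5′ end at 1.25 and 1.30. COL5A1 had its highest peak in the 3′ UTR, at 4.09 in hypoxia (chr1:274084124-274084722, plus strand) and 4.52 in normoxia. COL3A1, with more than 267 FPKM in every library, had no hypoxia peak and a single normoxia peak of 90 bases with an enrichment of 1.20. COL4A1 had 6 peaks in each list, all overlapping, the most of the tested members.

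The authors' deposited table of differential m6A peaks lists 1206 peaks, 519 higher and 687 lower in hypoxia, and 2 of them, both higher, lie on collagen genes. Among tested genes with a peak, 4.92% had a listed peak that was higher and 6.32% one that was lower. COL11A1 had a differential exonic peak at chr4:115664961-115709932 (plus strand, a span that includes introns) with a log2 difference of 0.24 and an adjusted p-value of 3.24e-10 in the authors' deposited table. COL16A1 had a differential exonic peak at chr6:88179277-88180937 (minus strand) with a log2 difference of 0.61 and an adjusted p-value of 0.0741 in that table. Neither gene was called in the input RNA, and none of the members called there had a listed differential peak.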

How the data were processed

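Expression was deposited by the authors as FPKM per gene for the 6 input libraries, per the file headers. For each gene the authors also deposited their p-value, their q-value and a log2 ratio of the conditions, and for each m6A peak a log2 enrichment, an adjusted p-value and its p-value, per the file headers; enrichments are given here as linear folds of the deposited log2 values. The submitters' processing notes name the build Sscrofa11.1, the aligner HISAT2 2.0.4, the assembler StringTie 2.1.2, the read tools FastQC and fastp 0.19.4, and also HOMER 4.10 and edgeR 4.1; the tool behind each table, the peak caller, strand-specific counting and any pooling of replicates for peaks are not stated in the sources used here. FPKM keeps no counts: among 3081 genes of low FPKM the commonest ratio between libraries was shared by 2, so depth is unknown and no counting interval is given. Library sums of FPKM ran between 294929 and 326804.

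Genes that reached 1 FPKM in at least 3 libraries were fitted with limma 3.58.1 (R 4.3.3; variance trend, robust estimation) on log2(FPKM + 1), a scale that understates the change of genes of low FPKM, with Benjamini-Hochberg adjustment over all of them; the fit was tested on simulated data. Median-ratio scaling reapplied the filter to the scaled values, which left 10141 genes. The alternatives were that scaling, a pseudocount of 0.1, no filter, limma without trend or robust estimation, the replicate number as a block and each library left out; leaving out both libraries numbered 3 was added after seeing the data. Chain ratios were tested with an exact permutation test (SciPy 1.17.1). Replicates are independent biological replicates per the labels, of a single batch. The members and lists were chosen with earlier results of these data known. Per-library values are given for every tested member, full statistics for called members and the most abundant of each class, at most 4 called genes of each list, the collagen differential peaks and at most 6 peaks of highest enrichment; other peaks named were chosen after their values were seen. Peak starts were read as counted from 0, since 3085 hypoxia and 3369 normoxia peaks begin 1 base before their gene's start and 0 at it, and are given counted from 1. The direction of differential peaks was checked against the lists: of positive ones 87 overlapped a hypoxia peak alone and 1 a normoxia peak alone, of negative ones 0 and 121.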

Additional observations from a re-analysis of the deposited data

How the results depend on the processing

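The form of the values and the number of libraries limit these results: FPKM carries no counts, and with 3 libraries a condition the exact tests cannot go below p = 0.1. Of all genes, 551 were called higher in hypoxia and 2148 lower; 901 were called lower after median-ratio scaling, 1056 higher without both libraries numbered 3 and 1869 higher with both changes. With 1 library left out the counts lay between 334 and 1143 higher and between 798 and 3186 lower. Collagen members called higher were 2 as deposited, 4 after median-ratio scaling, 7 with scaling and without both libraries numbered 3, and between 0 and 3 with 1 library left out. Those called lower were 1 as deposited, between 0 and 3 with 1 library left out, and 0 after scaling, with scaling and without both libraries, with a pseudocount of 0.1 (COL27A1 adjusted p = 0.0592) or with no filter (0.0583). COL5A1 and COL1A1 kept their direction in every setting run.

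Under median-ratio scaling the sign reversed for COL11A1 (0.25), COL4A5 (0.18), COL4A6 (0.22), COL8A1 (0.22) and COL8A2 (0.15), and with scaling and without both libraries numbered 3 for the same genes (0.26, 0.16, 0.044, 0.41 and 0.061). Without both libraries numbered 3, COL8A1 was at 0.15. Leaving out 1 library reversed COL4A5 (-0.25 to 0.015), COL4A6 (-0.33 to 0.14), COL8A1 (-0.46 to 0.52), COL8A2 (-0.15 to 0.038) and COL14A1 (-0.051 to 0.29). None of these values passed the test, and the cause was not tested. Among chain ratios, as log2 of hypoxia over normoxia, COL4A1 to COL4A2 ran from -0.062 to 0.076, COL4A5 to COL4A6 from -0.19 to 0.16 and COL8A1 to COL8A2 from -0.16 to 0.67 with 1 library left out, and the last was -0.024 as a difference of log2(FPKM + 1). Of the 2 collagen differential peaks 1 had an adjusted p under 0.05.

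The labels do not say whether the replicate numbers pair the samples, and the main fit used no pairing. Deviations of same-numbered libraries from their condition means correlated at 0.59, 0.04 and 0.70. Hypoxia library 2 correlated best with normoxia library 1 (0.64). These correlations cannot decide pairing, because deviations of 3 libraries from their own mean depend on each other. With the replicate block 695 genes were called higher and 2768 lower, and 3 collagen members higher (COL18A1 added, limma adjusted p = 0.0375) and 1 lower.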

Other observations

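A row named only by its identifier, ENSSSCG00000011355, is described in the deposited table as the collagen type VII alpha 1 chain, the anchoring fibril collagen of skin, and so fell outside the choice by symbol. It had 0.202, 0.157 and 0.443 FPKM in hypoxia, against 0.0319, 0.0960 and 0.123 FPKM in normoxia, all below the level tested here and without overlap between the conditions. The authors' deposited table marks it significant with a log2 fold change of 1.68 (q = 0.00956). A further row so named, ENSSSCG00000007678, described as the collagen type XXVI alpha 1 chain, did not exceed 0.131 FPKM in any library.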
